A study of Mus musculus with 12 samples.

Results

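The keratin genes of mouse were described in wild-type (WT) and telomerase-deficient embryonic stem (ES) cells before and during differentiation. Keratin probe sets were taken as those whose only gene symbol is Krt followed by a number and at most 1 letter, which leaves out the keratin-associated proteins. This gave 61 probe sets for 48 genes, out of 45037 probe sets tested. The genes were grouped as simple (4 genes, 6 probe sets), basal (3 genes, 5 probe sets), stratified (15 genes, 22 probe sets), hair (20 genes, 20 probe sets) and other keratins (6 genes, 8 probe sets). Another probe set, which carries the symbols of both *Krt14* and *Krt17*, was left out.

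Keratins are the intermediate filament proteins of epithelial cells, and a filament is built from a type I and a type II keratin that pair. *Krt8* (type II) and *Krt18* (type I) are the pair of simple, single-layered epithelia and are the keratins first made in the embryo, with *Krt7* and *Krt19* in many ductal and other simple epithelia. *Krt5* and *Krt14* are the pair of the basal layer of epidermis and other stratified epithelia, where *Krt15* is also made, and their transcription is known to depend on the factor p63 (gene *Trp63*). Keratinocytes that leave the basal layer of epidermis turn to *Krt1* and *Krt10*, cells of inner stratified linings such as oesophagus turn to *Krt4* and *Krt13*, and *Krt6a*, *Krt16* and *Krt17* mark hair follicle, nail and wounded epidermis. Hair keratins build the hair shaft and the inner root sheath of the follicle.

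RNA was measured on 12 Affymetrix mouse expression arrays. The 6 groups of 2 arrays were WT cells and *Terc* KO cells, each taken at day 0, 8 or 15. *Terc* encodes the RNA template of telomerase. The ES cells were of C57BL/6 background. The WT group at day 0 held the lines N12 and N33, both at passage 12, and the KO group, labelled G3/4 *Terc* KO, held the lines F35 and A49 at passage 11, from late-generation Terc-/- mice with short telomeres. Which lines were used for the arrays of days 8 and 15 is not stated in the labels. ES cells were grown on mitotically inactive mouse embryonic fibroblast feeders, and differentiation was started without LIF in hanging drops, which give embryoid bodies that were then plated. Each array is thus a mixture of cell types, and fewer cells of a type cannot be told apart from less RNA per cell. The annotation used here assigns no probe set to *Terc* alone, so the genotype labels were not checked against the targeted gene. The labels call the arrays of each group biological replicates but do not say what was replicated at days 8 and 15. Whether they came from separate cultures is thus open, and p-values measure only the spread between these arrays.

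Deposited values were linear intensities. The 4 arrays of day 0 had medians of 114 to 117 and the 8 later arrays medians of 50.6 to 53.1, with different lowest values, so that levels of day 0 were set beside later days only as percentiles within each array. Low values were read against a reference level, the 95th percentile of 43 olfactory receptor probe sets on the same array, which lay at 147 to 168 at day 0 and at 33.96 to 37.8 on later arrays. All tests used limma with all 12 arrays, and a probe set was called at an adjusted p under 0.05 over all 45037 probe sets.

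Promoter sequence was taken from RefSeq (build GRCm38.p6), whose table held 32 of the 48 keratin genes. The 250 bases before the transcription start are shown for *Krt5*, *Krt14* and *Krt13*, each called lower in KO at day 15 below. *Krt13* was called on its brightest probe set only, which was below the reference level. For contrast the windows of the simple pair *Krt8* and *Krt18* and a hair keratin, *Krt33b*, the brightest of its class in the table, are also shown. Capitals mark matches on either strand to 5 motifs: the letters TATAAA of the box at which transcription is started, the letters GGGCGG bound by Sp1, the letters TGANTCA bound by AP-1, the letters GCCNNNGGC bound by AP-2, and the p53 family half-site. Matches of different motifs may overlap. *Krt5* lies at chr15:101712906-101713155 and *Krt14* at chr11:100206031-100206280. *Krt13* has 2 windows, at chr11:100121567-100121816 and chr11:100120578-100120827, and *Krt8* lies at chr15:102004343-102004592, all on the minus strand. *Krt18* lies at chr15:102027966-102028215 on the plus strand and *Krt33b* at chr11:100029869-100030118 on the minus strand.
Krt5: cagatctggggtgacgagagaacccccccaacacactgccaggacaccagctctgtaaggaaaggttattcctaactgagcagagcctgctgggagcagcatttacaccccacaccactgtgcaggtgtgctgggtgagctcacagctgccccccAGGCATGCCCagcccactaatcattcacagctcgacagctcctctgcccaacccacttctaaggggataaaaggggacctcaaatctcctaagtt
Krt14: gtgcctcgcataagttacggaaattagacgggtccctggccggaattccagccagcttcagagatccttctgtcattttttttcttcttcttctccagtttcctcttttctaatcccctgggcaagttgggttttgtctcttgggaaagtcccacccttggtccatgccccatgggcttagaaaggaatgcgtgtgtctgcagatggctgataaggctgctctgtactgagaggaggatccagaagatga
Krt13, upstream start: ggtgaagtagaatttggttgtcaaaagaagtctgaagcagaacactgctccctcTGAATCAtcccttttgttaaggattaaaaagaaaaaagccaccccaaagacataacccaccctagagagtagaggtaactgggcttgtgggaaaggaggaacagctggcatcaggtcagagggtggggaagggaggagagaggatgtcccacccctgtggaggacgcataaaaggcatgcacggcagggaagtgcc
Krt13, downstream start: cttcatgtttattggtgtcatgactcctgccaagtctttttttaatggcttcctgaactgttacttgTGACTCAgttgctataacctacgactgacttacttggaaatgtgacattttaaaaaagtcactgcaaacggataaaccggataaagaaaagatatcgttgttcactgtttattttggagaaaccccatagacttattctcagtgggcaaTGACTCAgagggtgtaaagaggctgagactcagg
Krt8: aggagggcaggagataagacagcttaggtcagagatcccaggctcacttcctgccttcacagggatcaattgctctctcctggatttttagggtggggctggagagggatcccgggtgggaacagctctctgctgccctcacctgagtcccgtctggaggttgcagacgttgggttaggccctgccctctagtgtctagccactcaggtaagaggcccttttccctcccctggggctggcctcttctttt
Krt18: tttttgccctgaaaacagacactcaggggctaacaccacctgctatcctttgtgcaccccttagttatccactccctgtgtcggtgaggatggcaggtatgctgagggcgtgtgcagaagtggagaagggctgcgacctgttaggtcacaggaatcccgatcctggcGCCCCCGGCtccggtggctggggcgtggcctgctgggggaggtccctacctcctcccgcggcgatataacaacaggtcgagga
Krt33b: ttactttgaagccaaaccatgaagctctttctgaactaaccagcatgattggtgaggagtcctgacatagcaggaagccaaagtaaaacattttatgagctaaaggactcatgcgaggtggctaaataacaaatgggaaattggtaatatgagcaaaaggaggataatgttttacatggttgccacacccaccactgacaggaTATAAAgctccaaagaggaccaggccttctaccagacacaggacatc

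The letters TATAAA were present in the windows of 12 of 15 hair keratins, against 12.4% of all 32851 promoter windows of that length. Of 3 simple keratins in the table none held them, nor did *Krt5* or *Krt14*, and 3 of 10 stratified windows did. In *Krt25*, *Krt26*, *Krt28*, *Krt31*, *Krt32*, *Krt34* and *Krt73* a match lay between 31 and 24 bases before the start. Outside the hair class a match lay at 29 to 24 bases in the stratified *Krt12* and *Krt76* and in *Krt20*. That of the stratified *Krt10* lay at 26 to 21 bases. AP-1 letters, which occurred in 6.7% of all windows, were found in both *Krt13* windows and in no other keratin window. AP-2 letters (13.7% of all windows) were found in *Krt7*, *Krt18* and *Krt42*, GGGCGG (32.7%) in *Krt7* and *Krt75*, and the p53 family half-site (7.1%) in *Krt5*, *Krt76* and *Krt82*. A match is a description of letters only.

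*Krt8* and *Krt18* stood near the top of every array while most other keratins stood near or below the reference level. By its brightest probe set each of them lay on average at or above the 95.4th percentile of the array in each of the 6 groups, and reached the 99.4th to 99.8th percentile at day 8. *Krt19* ran from the 70.7th percentile in KO at day 0 to the 94.7th in KO at day 8, and *Krt7* from the 76.0th to the 87.3rd. All 6 simple probe sets were above the reference level in every group. Of all 61 keratin probe sets 32 were above it in at least 1 group and 13 in every group. Apart from the simple keratins, those 13 were *Krt5* of the basal, *Krt10* of the stratified, *Krt81* and *Krt83* of the hair and *Krt42* and *Krt88* of the other keratins, with 2 probe sets for *Krt42*. *Krt83* and *Krt88*, like *Krt6b* and *Krt20* below, were named after their values were seen. *Krt1*, made by keratinocytes above the basal layer, was below the reference level in every group.

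**Figure D1:**
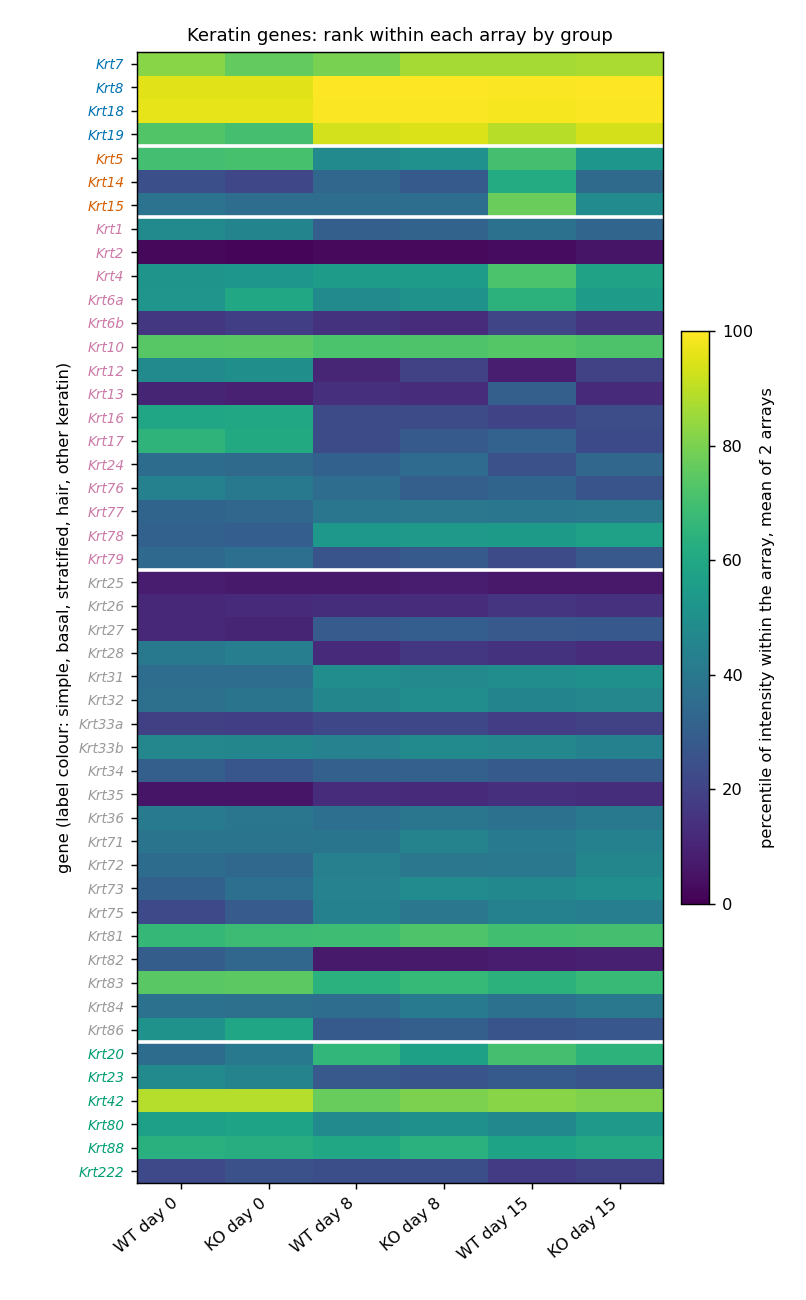
Percentile of each of 48 keratin genes (rows, grouped by class, brightest probe set of the gene) within the array, averaged over the 2 arrays of each group (columns). *Krt8* and *Krt18* stay at or above the 95.4th percentile in every group, and *Krt5*, *Krt14*, *Krt15*, *Krt4* and *Krt6a* are brighter in WT at day 15 than in KO at day 15.

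At day 15 the basal keratins were lower in KO than in WT. All 5 basal probe sets (3 genes) were called lower, where 6.45% of all probe sets were called lower in KO and 6.45% higher, and their median log2 difference was -1.37, beside 0.04 over all probe sets. *Krt15* was read at 278 and 197 in WT and at 35.7 and 71.6 in KO. Both WT arrays were above both KO arrays, as for 10539 of all 45037 probe sets at day 15, and 1 KO array was below the reference level. The log2 difference was -2.21 (SE 0.27), with an adjusted p of 0.000736 by limma.

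*Krt5* and *Krt14* moved the same way. *Krt5* was read at 166 and 140 in WT at day 15 and at 57.7 and 60.2 in KO, a log2 difference of -1.37 (SE 0.15) with an adjusted p of 0.000346 by limma. On the day 8 arrays of both genotypes it ran from 42.1 to 58.8, so that among the 8 later arrays only the WT arrays of day 15 stood apart. By percentile within the array, *Krt5* in WT at day 15 (70.6th) was near undifferentiated cells at day 0 (70.2nd in WT and 71.0th in KO). *Krt14* has 3 probe sets. On the brightest WT was at 87.2 and 92.8 and KO at 22.4 and 37.2, and on the second WT was at 45.9 and 48.5 and KO at 18.1 and 26.4. Log2 differences were -1.64 (adjusted p = 0.00255 by limma) and -1.11 (adjusted p = 0.00171 by limma). WT at day 15 was the only group with either of these above the reference level. The dimmest probe set stayed below the reference level in all groups, at 19.6 and 20.0 in WT and 14.0 and 13.5 in KO at day 15, and its call (log2 difference -0.53, adjusted p = 0.0180 by limma) was lost when either WT or either KO array of day 15 was left out.

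**Figure D2:**
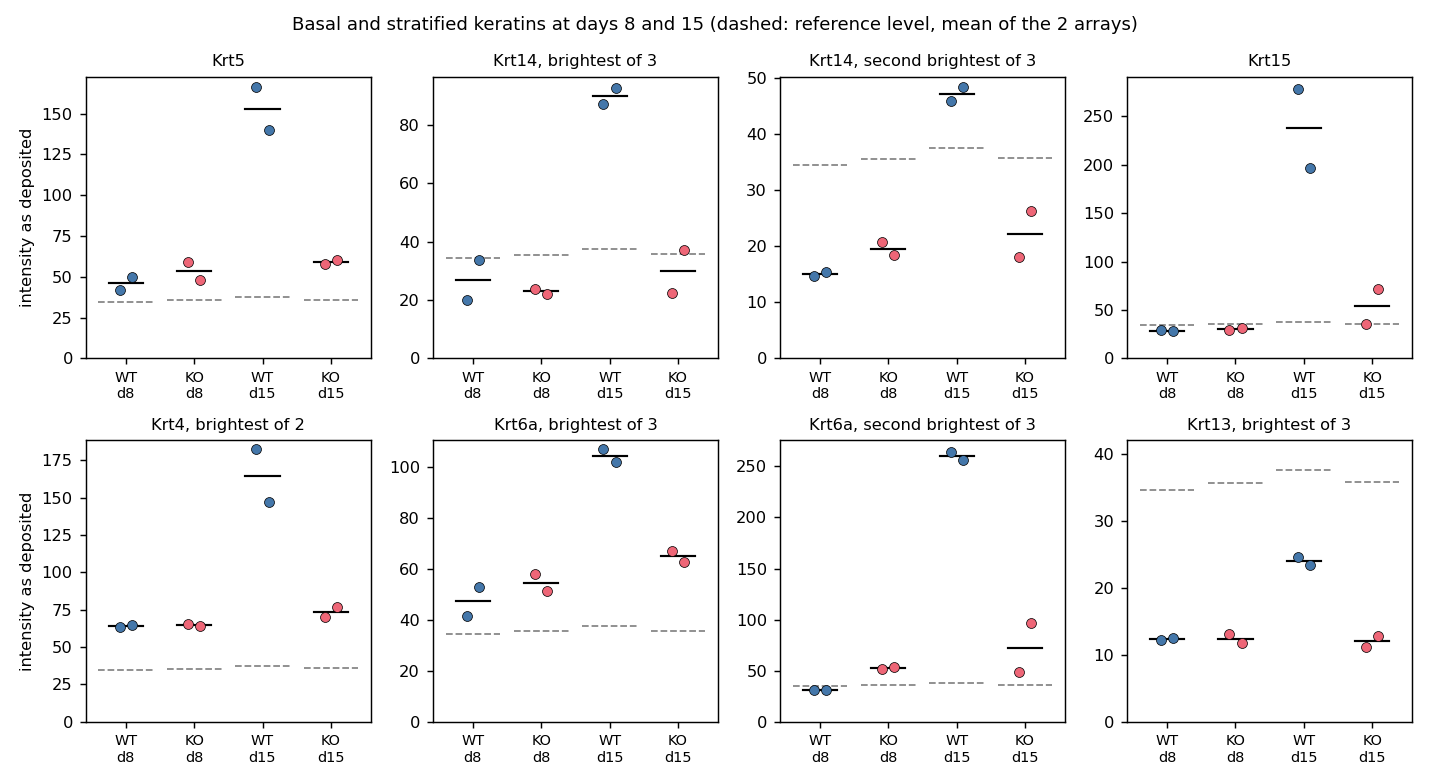
Deposited intensity (linear axis from 0) of 8 basal and stratified probe sets (ranked by brightness where a gene has several) at days 8 and 15; points are single arrays (blue WT, red KO), bars the mean of 2 arrays and dashed lines the reference level. In every panel both WT arrays of day 15 lie above all other arrays, and *Krt13* lies below the reference level throughout.

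Among stratified keratins the difference at day 15 was held by *Krt4*, *Krt6a* and *Krt13*, of which *Krt4* and *Krt13* are keratins of inner stratified linings. Of 22 probe sets 6 were called lower in KO and 2 higher, where 6.45% of all probe sets were called in each direction. The 2 higher are near that share. The median log2 difference of the class was -0.21. The brighter of 2 *Krt4* probe sets was at 182 and 147 in WT and at 70.0 and 76.9 in KO (log2 difference -1.16, adjusted p = 0.000551 by limma). The dimmer was at 98.4 and 77.1 in WT and at 18.9 and 13.6 in KO (log2 difference -2.44, adjusted p = 0.000128 by limma). Both probe sets placed both KO arrays below both WT arrays, a pattern that 10539 of all 45037 probe sets had at day 15. On the dimmer both KO arrays were below the reference level, as were the day 8 arrays, so that its log2 value sets WT against background.

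The 3 *Krt6a* probe sets were also called lower, but by different amounts. On the second brightest WT was at 264 and 256 and KO at 48.8 and 96.5, with a log2 difference of -1.92 (adjusted p = 0.000743 by limma). On the brightest WT was at 107 and 102 and KO at 67.0 and 62.9, and the log2 difference was -0.69 (adjusted p = 0.0146 by limma). On the dimmest, below the reference level in all groups, it was -0.63 (adjusted p = 0.0459 by limma). The dimmest lost its call without any 1 array of day 15, and the brightest without WT replicate 1 or either KO array. *Krt6a* has close paralogs, *Krt6b* among them, so that a share of these signals could come from another gene, which was not tested. *Krt6b* itself was read at 16.6 and 17.3 in WT and at 16.0 and 12.3 in KO at day 15, below the reference level.

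*Krt13* was at 24.6 and 23.5 in WT and at 11.2 and 12.8 in KO at day 15 (log2 difference -1.01, adjusted p = 0.00130 by limma), below the reference level. Its other 2 probe sets, still dimmer, were not called. Calls in the other direction were made on 2 dim probe sets. *Krt12*, the keratin of corneal epithelium, was at 10.7 and 7.64 in WT and at 17.2 and 15.9 in KO (log2 difference 0.87, adjusted p = 0.00681 by limma), and its other probe set was not called. *Krt24* was at 22.0 and 17.6 in WT and at 27.7 and 27.2 in KO (log2 difference 0.48, adjusted p = 0.0370 by limma). Both were below the reference level in every group, and both calls were lost (that of *Krt24* also without WT replicate 2 or KO replicate 2) without KO replicate 1 of day 15, when 8 of 61 keratin probe sets were called, all lower.

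*Krt10*, the brightest stratified keratin, was read at 196 and 174 in WT and at 147 and 183 in KO at day 15, and the groups overlapped. *Krt1* was at 34.9 and 28.7 in WT and at 29.6 and 24.4 in KO and was not called.

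Hair keratins showed no called difference at day 15. Of 20 probe sets none was called in either direction, none had an unadjusted p under 0.05, and the log2 differences ran from -0.12 to 0.34 with a median of 0.07. Over all 45037 probe sets 6.45% were called in each direction by limma, and 11823 had an unadjusted p under 0.05. Above the reference level were 7 of the 20 hair probe sets in WT and 9 in KO, so that a difference in the others could be missed. *Krt81*, the brightest of the class, was read at 151 and 138 in WT and at 180 and 121 in KO. For the other keratins none of 8 probe sets was called, beside the same 6.45% in each direction, with 1 at an unadjusted p under 0.05. *Krt42*, the brightest of these, was at 344 and 316 in WT and at 306 and 274 in KO on the brighter of its probe sets.

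The simple keratins leaned the other way at day 15. *Krt8* (brightest probe set) was read at 5750 and 8809 in WT and at 12062 and 12113 in KO, and *Krt18* at 3199 and 5733 in WT and at 7554 and 8302 in KO. *Krt19* was at 528 and 689 in WT and at 895 and 1159 in KO. On these and the other 2 *Krt8* probe sets both KO arrays were above both WT arrays, a pattern that 13891 of all 45037 probe sets had at day 15. *Krt7* overlapped, at 376 and 589 in WT and at 442 and 511 in KO. None was called with all 12 arrays: the log2 differences were 0.76 (SE 0.44) for *Krt8*, 0.89 (SE 0.46) for *Krt18*, 0.76 (SE 0.37) for *Krt19* and 0.02 (SE 0.55) for *Krt7*, with adjusted p of 0.318, 0.271, 0.237 and 0.991 by limma.

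The spread in that fit is shared with day 0, where the 2 WT arrays differed. At day 0 *Krt8* was read at 4915 in N12 and 1573 in N33, *Krt18* at 5636 and 1895, *Krt19* at 469 and 203 and *Krt7* at 986 and 354. These 2 arrays thus differed by 2.31-fold to 3.12-fold, and both KO arrays lay between them for *Krt8*, *Krt18* and *Krt19*. For *Krt7* the KO arrays of day 0 were 2.45-fold apart. With 1 array a line, a difference between lines cannot be told apart from 1 between cultures or arrays. With the 4 day 0 arrays left out of the fit, the SE of *Krt8* was 0.19 in place of 0.44, and the 3 *Krt8* probe sets were called higher in KO at day 15, with log2 differences of 0.76, 0.97 and 0.78 and adjusted p of 0.0463, 0.0239 and 0.0277 by limma. *Krt18*, *Krt19* and *Krt7* were not called then (adjusted p = 0.0942, 0.0853 and 0.984 by limma). With only the 4 arrays of day 15, *Krt19* (adjusted p = 0.0377 by limma) and 1 of the 3 *Krt8* probe sets (0.0422, the others 0.118 and 0.0511) were called, where 4.61% of all probe sets were called higher. In the fit of the 8 later arrays, without day 0, 4.02% of all probe sets were called higher and 4.38% lower at day 15. That fit without day 0 called 14 keratin probe sets, 4 higher and 10 lower. These kept 11 of the 13 calls, losing *Krt24* and the dimmest *Krt6a* probe set.

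**Figure D3:**
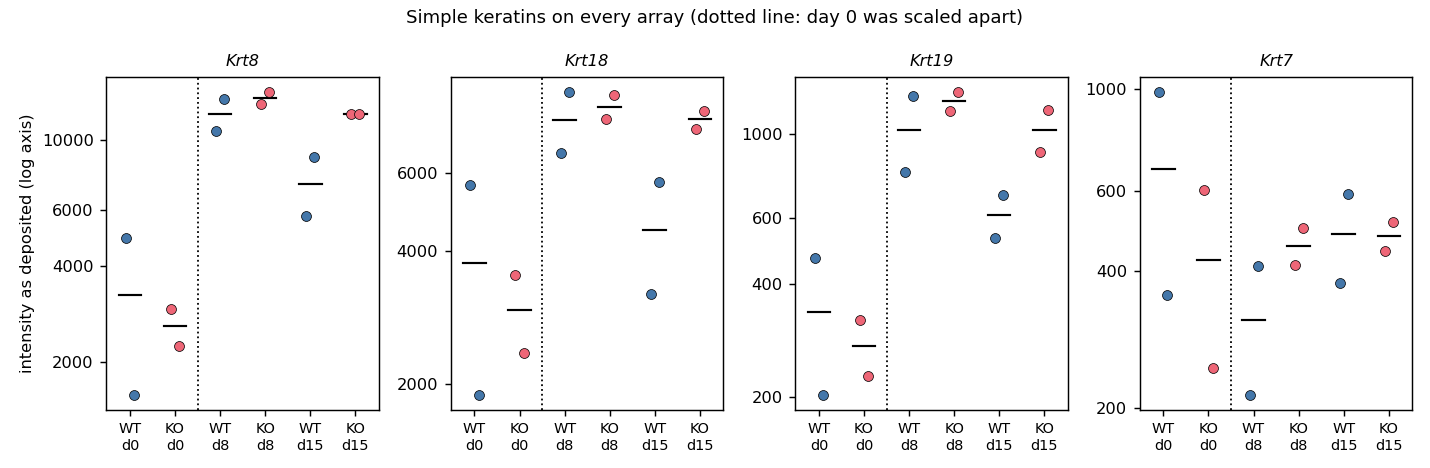
Deposited intensity (log axis) of *Krt8*, *Krt18*, *Krt19* and *Krt7* on all 12 arrays, brightest probe set of each gene; points are arrays (blue WT, red KO) and bars the mean of 2 arrays. The 2 WT arrays of day 0 lie 2.31-fold to 3.12-fold apart, and at day 15 both KO arrays lie above both WT arrays for *Krt8*, *Krt18* and *Krt19* but not *Krt7*.

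In all, 13 of 61 keratin probe sets were called at day 15, 2 higher and 11 lower, for 2 and 6 genes. Over all probe sets 6.45% were called higher and 6.45% lower by the same test, a share that the 2 higher did not exceed. By the fold rule of the study's methods, a ratio of group means of at least 1.8-fold with no test, 10 keratin probe sets passed, 2 higher and 8 lower, and 6.28% of all probe sets did.

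**Figure D4:**
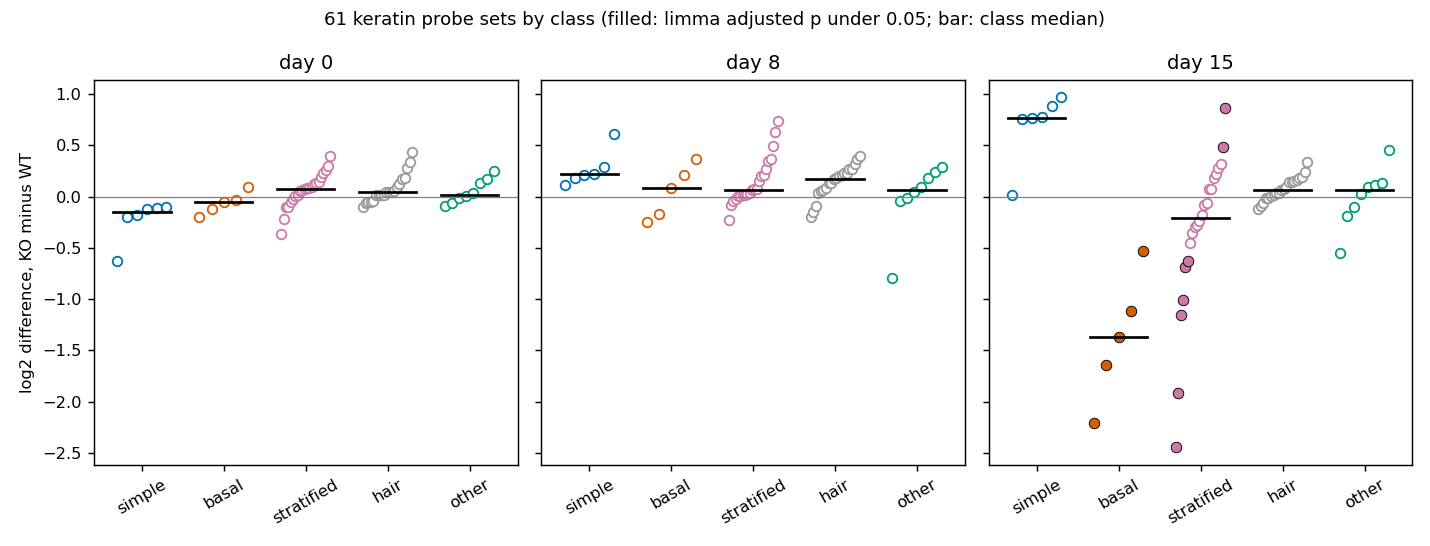
Log2 difference (KO minus WT) of each of 61 keratin probe sets at days 0, 8 and 15, by class; filled points have an adjusted p under 0.05 by limma and bars are class medians. At day 15 the basal median is -1.37 and the simple median 0.77, while hair and other keratins centre on 0.07 and 0.06.

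Before day 15 no keratin probe set was called between genotypes. At day 0 none of 61 was called by limma (2 at an unadjusted p under 0.05, 0 by the methods' t-test), where 0.0488% of all probe sets were. The methods' t-test called 0 of all 45037 probe sets in every comparison it was run on, day 15 included, so that its 0 says nothing here. None reached 1.8-fold, which 1.13% of all probe sets did. At day 8 none was called (9 at an unadjusted p under 0.05, 0 by the methods' t-test), where 1.13% of all probe sets were. By 1.8-fold 1 keratin probe set passed, that of *Krt20*, where 2.28% of all did. *Krt20*, a keratin of intestinal and urothelial lining, was read at 72.1 and 207 in WT and at 58.4 and 85.6 in KO, so that 1 WT array set this ratio.

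At day 8 *Krt5* was at 42.1 and 50.04 in WT and at 58.8 and 48.1 in KO, and *Krt15* at 28.9 and 28.5 in WT and at 29.8 and 31.0 in KO. *Krt4* (brighter probe set) was at 63.1 and 65.0 in WT and at 65.1 and 64.2 in KO. For *Krt5* and *Krt4* the genotypes overlapped, and for *Krt15* both KO arrays were just above both WT arrays. That pattern was found for 11561 of all 45037 probe sets at day 8. *Krt6a* on its second brightest probe set was higher in KO without passing the test, at 31.5 and 31.4 in WT and at 51.7 and 53.6 in KO (adjusted p = 0.180 by limma).

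From day 8 to day 15 the basal keratins *Krt5*, *Krt14* and *Krt15* and the stratified keratins *Krt4*, *Krt6a*, *Krt13* and *Krt17* rose in WT. Of 61 keratin probe sets 12 were called higher at day 15, for 8 genes, and 0 lower, where 6.89% of all probe sets were called higher and 9.16% lower. Of 22 stratified probe sets 7 were called higher (class median 0.16). *Krt15* rose from a mean of 28.7 ± 0.230 (SD, n = 2) to 238 ± 57.3 (SD, n = 2), a log2 change of 3.03 (adjusted p = 0.000130 by limma). *Krt5* rose from 46.1 ± 5.59 (SD, n = 2) to 153 ± 18.6 (SD, n = 2), a log2 change of 1.73 (adjusted p = 9.6e-05 by limma). *Krt14* rose on its 2 brighter probe sets, by 1.799 and 1.64 on the log2 scale, and was not called on the dimmest, at 20.0 and 21.5 at day 8 and 19.6 and 20.0 at day 15. The basal pair and *Krt15* were thus all called. At day 8 the WT arrays of *Krt15* and *Krt14* were below the reference level, so that their log2 changes start from background.

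*Krt6a* rose on its 3 probe sets, by log2 changes of 1.16, 3.05 and 1.36, *Krt4* on both of its own, by 1.35 and 2.53, and *Krt13* by 0.96. Of these probe sets only the brightest of *Krt6a* and the brighter of *Krt4* were above the reference level in WT at day 8. The other changes start from background, and *Krt13* was below the reference level at day 15 too. *Krt42* rose on the brighter of 2 probe sets (0.52, adjusted p = 0.0130 by limma). *Krt17* rose from 18.8 and 16.7 to 25.3 and 24.7 (0.50, adjusted p = 0.0497 by limma) on 1 of its probe sets, which was below the reference level at both days and lost its call when any array of the comparison was left out. By 1.8-fold 11 keratin probe sets passed, 10 higher and 1 lower, where 6.64% of all probe sets did. *Krt8* was at 10653 and 13439 at day 8 and at 5750 and 8809 at day 15 (log2 change -0.75, adjusted p = 0.317 by limma). Without the day 0 arrays the 3 *Krt8* probe sets were called lower at day 15 (adjusted p = 0.0421, 0.0236 and 0.0260 by limma), where 6.16% of all probe sets were called lower. No hair keratin was called, with log2 values from -0.16 to 0.22. Of 20 hair probe sets 6 were above the reference level in WT at day 8 and 7 at day 15, so that a change in the others could be missed.

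In KO no keratin probe set was called from day 8 to day 15 (3 at an unadjusted p under 0.05, 0 by the methods' t-test), where 0.0200% of all probe sets were called. None reached 1.8-fold, which 0.946% of all probe sets did. *Krt5* was at 58.8 and 48.1 at day 8 and at 57.7 and 60.2 at day 15, and *Krt4* (brighter probe set) at 65.1 and 64.2 and then at 70.0 and 76.9. *Krt15* was at 29.8 and 31.0 and then at 35.7 and 71.6, where replicate 2 stood apart (log2 change 0.74, adjusted p = 0.363 by limma). No other keratin probe set had a larger log2 value in KO than *Krt15*.

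The genotype difference in the change from day 8 to day 15 was tested directly. It was called negative, a smaller rise in KO, for 6 keratin probe sets of 5 genes, *Krt5*, *Krt14*, *Krt15*, *Krt4* and *Krt6a*, and positive for 0, where 0.284% of all probe sets were called negative and 0.138% positive. Differences on the log2 scale were -1.58 for *Krt5* (adjusted p = 0.0110 by limma), -1.48 for the second *Krt14* probe set (0.0243), -2.29 for *Krt15* (0.0331), -2.66 for the second *Krt6a* probe set (0.00914), and -1.17 and -2.48 for the brighter and dimmer *Krt4* probe sets (0.0306 and 0.00882). All 6 calls were lost without the day 0 arrays, when 0.0577% of all probe sets were called negative, with adjusted p from 0.0570 to 0.132 by limma and the same log2 values. They fell to 1 without KO replicate 1 of day 8, to 2 without replicate 2, and to 2 and 3 without KO replicates 1 and 2 of day 15. Of the 6 probe sets only those of *Krt5* and the brighter of *Krt4* were above the reference level in WT at day 8. The other log2 values thus rest on a WT rise from background. No simple, hair or other keratin was called here.

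**Figure D5:**
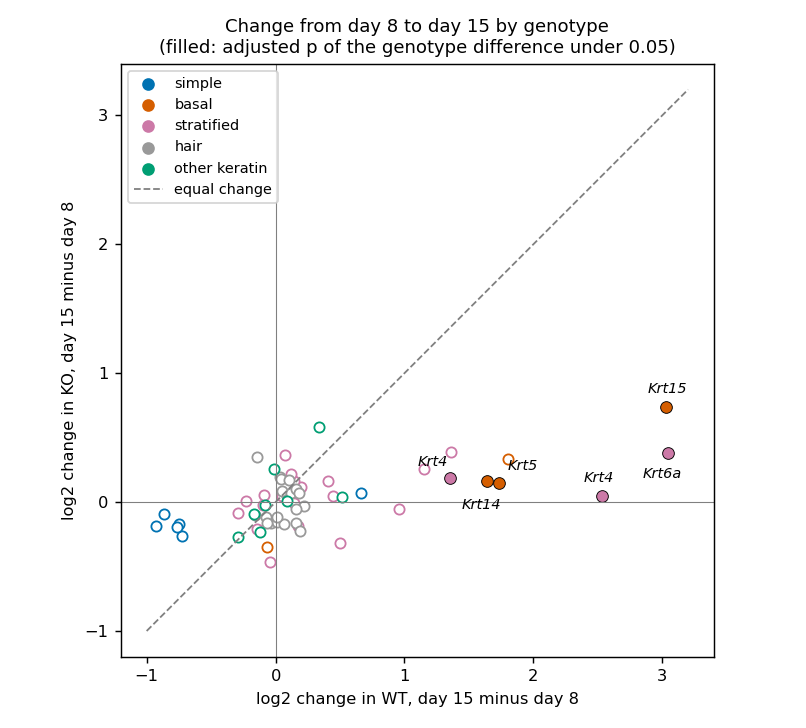
Log2 change from day 8 to day 15 in WT (x axis) and in KO (y axis) for 61 keratin probe sets, coloured by class; filled points have a genotype difference with an adjusted p under 0.05 by limma and the dashed line marks equal change. The 6 filled points of *Krt5*, *Krt14*, *Krt15*, *Krt4* and *Krt6a* lie between 1.35 and 3.05 on the x axis and between 0.05 and 0.74 on the y axis.

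Genes that act upstream of keratins or anchor their filaments did not move as 1 group at day 15. Among 15 epidermal regulators 3 were called higher in KO and 2 lower, with a median of 0.05, where 6.45% of all probe sets were called in each direction. Higher were the AP-2 gene *Tfap2c* (log2 difference 1.00), *Klf5* (0.96) and *Grhl2* (0.70). These 3 were also expressed in WT ES cells at day 0, at means of 3086, 2228 and 680, above the reference level of that day. Lower were the AP-2 genes *Tfap2b* (-0.96) and *Tfap2a* (-0.60), which are expressed in surface ectoderm and neural crest. *Tfap2b* was at 28.4 and 41.0 in WT and at 17.1 and 17.9 in KO, with 1 WT array alone above the reference level. *Tfap2a* rose in WT from day 8 to day 15 by 1.02 on the log2 scale (adjusted p = 0.00299 by limma) and *Tfap2b* by 1.16 (adjusted p = 0.00468 by limma). For *Trp63*, all 4 probe sets were below the reference level on all 8 arrays of days 8 and 15. The brightest over all 12 arrays was at 16.5 and 16.6 in WT and at 19.0 and 15.4 in KO at day 15 (adjusted p = 0.881 by limma). On another WT was at 35.6 and 30.8 and KO at 22.2 and 27.0 (log2 difference -0.43, adjusted p = 0.1004 by limma), and WT had risen from 21.9 and 18.8 at day 8 (adjusted p = 0.0112 by limma).

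Of 20 genes of desmosomes and hemidesmosomes, the junctions to which keratin filaments attach, 4 were called higher in KO at day 15 and 2 lower. Over all probe sets 6.45% were called in each direction, and 2 of 20 is near that share. *Perp* (log2 difference 1.36), *Itga6* (0.89), *Dst* (0.68) and *Pkp3* (0.55) were higher. *Col17a1*, a hemidesmosome collagen of basal keratinocytes, was at 61.6 and 33.2 in WT and at 20.3 and 21.5 in KO (-1.11, adjusted p = 0.00929 by limma), and *Pkp1*, a plakophilin of stratified epithelia, was at 33.97 and 29.7 in WT and at 16.8 and 20.5 in KO (-0.78, adjusted p = 0.00589 by limma). *Pkp1* was below the reference level on all 4 arrays and *Col17a1* on all but 1 WT array. Both had risen in WT from day 8, by 1.46 and 1.18 on the log2 scale. Of 17 cornified envelope genes *Krtdap*, which is made by differentiating keratinocytes, was called lower (-1.02) and *Lor* higher (0.51), and the rest were not called, a share near that of all probe sets. *Krtdap* rose in WT from 19.0 and 22.1 at day 8 to 81.1 and 64.2 at day 15, and its genotype difference in change was -1.54 (adjusted p = 0.0434 by limma). Both WT arrays of day 8 were below the reference level, so that this rise starts from background. Without the day 0 arrays 29 of all 45037 probe sets were called for the genotype difference in change, in place of 190.

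Epithelial junction genes went with the simple keratins in sign. Of 12 measured, 7 were called higher in KO at day 15 and 0 lower, with a median of 0.81. Undifferentiated cells expressed them too, with 11 above the reference level in WT at day 0 and 9 in KO. *Cdh1*, which encodes E-cadherin, was at 772 and 1435 in WT and at 3281 and 2845 in KO (log2 difference 1.54, adjusted p = 0.00320 by limma), and *Cldn4* (1.35), *Crb3* (1.15) and *Epcam* (1.05) followed. Among 15 genes of other intermediate filaments 2 were called higher, the synemin gene *Synm* (2.02) and the neurofilament gene *Nefh* (1.58), and 0 lower, with a median of -0.01. This share is near that of all probe sets called at day 15 (6.45% in each direction).

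Markers of other cells also differed at day 15, where 6.45% of all probe sets were called higher in KO and 6.45% lower. Of 10 pluripotent cell genes 9 were called higher in KO, with a median log2 difference of 2.39, and their summed intensity was 2534 to 7348 in WT and 18206 to 19296 in KO. *Tdgf1* (4.24), *Pou5f1* (3.58), *Nanog* (3.10) and *Zfp42* (2.44) led. Of 11 fibroblast genes 6 were called lower in KO (median -1.84, summed intensity 56211 to 74099 in WT and 11886 to 17655 in KO), with *Col1a2* (-3.65), *Lum* (-3.05), *Col6a1* (-2.27) and *Col1a1* (-2.01) first. Of 12 endoderm genes 7 were lower (median -1.53, sums 21658 to 41788 and 8462 to 10094), led by *Afp* (-2.99), *Apoa1* (-2.33), *Rbp4* (-2.15) and *Gata6* (-2.10).

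Of 7 mesothelial genes, a cell type known for both simple keratins and *Krt5*, 3 were lower in KO: *Upk3b* (-3.41), *Wt1* (-2.06) and *Msln* (-0.71), with a median of -0.71 and sums of 755 to 1451 in WT and 533 to 566 in KO. *Upk3b* was at 619 and 261 in WT and at 38.1 and 37.8 in KO. Of 8 trophoblast genes *Ascl2* was higher (1.09) and *Elf5*, below the reference level on all 4 arrays, lower (-0.92), with sums of 918 to 1284 in WT and 1019 to 1021 in KO. With 6.45% of all probe sets called in each direction, 1 of 8 is near that share. Of 12 neural ectoderm genes 5 were higher and 2 lower, with sums of 2734 to 3654 in WT and 2955 to 3139 in KO, and *Otx2* (3.35), *Olig2* (2.89), *Zic2* (2.38) and *Ncam1* (-1.57) had the largest log2 differences. Above the reference level at day 15 were 5 mesothelial genes in WT and 4 in KO, 6 and 5 trophoblast genes, and 9 and 11 neural ectoderm genes. The part of these cell types in the keratin differences was not tested.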

How the data were processed

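RNA was hybridised to 12 Affymetrix mouse expression arrays, 2 per group. Per the labels the deposited values are linear intensities, 1 per probe set and array, which the submitters' processing notes trace to MAS5. Its settings were not found in the sources used here. Medians and lowest values differ between the 4 arrays of day 0 and the 8 later ones, which points to separate scaling. The number of arrays limits the precision.

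Probe sets were named through GEO's platform annotation: of 45037 probe sets left after 64 controls, 34945 carried 1 symbol, 932 several and 9160 none. Intensities, with values under 1 set to 1, were put on the log2 scale and fitted with limma 3.58.1 (R 4.3.3), giving each group its own mean, with eBayes set to trend and robust and without a replicate block. For each of 6 comparisons two-sided p-values were adjusted across all 45037 probe sets (Benjamini-Hochberg). The fit was tested on simulated data.

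The keratins, their classes, the 11 other gene lists and the tests were chosen with earlier results of these data known. Text values were given for simple and basal keratins, *Krt1* and *Krt4*, every keratin called in any comparison, the brightest keratin of each class (highest mean log2 intensity) and, of other lists, *Trp63* and up to 4 called genes by size. Without a single-gene probe set were *Krt3*, *Krt9*, *Krt39*, *Krt40*, *Krt74*, *Krt85*, *Krt87* and *Krt90*, not analysed here. Replicate numbers did not pair arrays: deviations of same-numbered arrays correlated at -0.126 to 0.218. Alternatives were quantile normalization, median centring, an offset of 32, a mean intensity of at least 64, eBayes with neither trend nor robust moderation, the replicate block, only the arrays compared, the methods' t-test, gene means, 1.8-fold, each array left out and, added after seeing the data, no day 0 arrays.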

Additional observations from a re-analysis of the deposited data

Results flagged for a closer look

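For 6 keratin probe sets the change from day 8 to day 15 differed between KO and WT by a test of the difference itself (limma, adjusted p under 0.05). The KO change was smaller than the WT change by log2 values of -1.58 for *Krt5*, -1.479 for *Krt14* (second brightest probe set), -2.292 for *Krt15*, -2.663 for *Krt6a* (second brightest probe set), and -1.17 and -2.483 for *Krt4* (brighter and dimmer probe set). All 6 calls were lost without the day 0 arrays, with adjusted p from 0.0570 to 0.132 by limma. In WT at day 8 only *Krt5* and the brighter *Krt4* probe set were above the reference level. With 2 arrays a group no array could be tested as standing apart from its group.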

How the results depend on the processing

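All 31 called keratin values kept their direction in every alternative run on them. Counts of called keratin probe sets that moved by over 1.5 times were these. For KO minus WT at day 8, 0 became 1 by 1.8-fold (*Krt20*, lower), 1 at gene level (*Krt12*, higher), and 0 to 1 with an array left out, the 1 without WT replicate 1 (*Krt12*). For KO minus WT at day 15, 13 of 61 became 7 of 23 with a mean intensity of at least 64, which leaves out the 7 probe sets whose calls were lost and adds *Krt80*, 0 by the methods' t-test and 8 to 11 with an array left out, the 8 without KO replicate 1. For day 15 minus day 8 in WT, 12 became 0 by the methods' t-test and 7 at gene level (fewer features than probe sets). For day 15 minus day 8 in KO, 0 became 1 with only the arrays compared (1 of 3 *Krt8* probe sets, lower). For the genotype difference in change, 6 became 0 with only the arrays compared and 0 without the day 0 arrays, which are the same 8 arrays, and 1 to 9 with an array left out, the 9 without WT replicate 2 of day 8 and 1, 2, 2 and 3 without the KO arrays of either day. Causes were not tested.

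Of the uncalled keratins the simple ones alone were put through the alternatives, and signs turned among them with an array left out. For KO minus WT at day 0 their log2 values ranged from -0.80 to 0.41 for *Krt19*, -0.94 to 0.70 for *Krt8*, -1.36 to 0.12 for *Krt7* and -0.97 to 0.61 for *Krt18*. For KO minus WT at day 8 their log2 values ranged from -0.044 to 0.62 for *Krt19* and -0.11 to 0.35 for *Krt18*. For KO minus WT at day 15 their log2 values ranged from -0.31 to 0.34 for *Krt7*. For day 15 minus day 8 in KO their log2 values ranged from -0.061 to 0.20 for *Krt7*.

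As the replicate numbers do not pair the arrays, the replicate block was run as an alternative only: it gave 12 calls at day 15 between genotypes, 13 over time in WT and 6 for the genotype difference. Depth does not apply, and most keratins other than the simple ones lay near or below the reference level.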
